A study of Mus musculus with 10 samples.

Results

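Pancreatic acinar genes are the genes of the secretory cells of the exocrine pancreas, and 39 of them were followed here out of the 55359 genes of the deposited table. They were chosen by name and function, with earlier results of these data known. The list comprises 14 proteases, 6 lipases and lipase partners, and 3 amylase and ribonuclease genes. It also holds 6 inhibitor and granule proteins, 5 genes of the Reg family and 5 regulators or receptors of acinar cells. Acinar cells store digestive enzymes as inactive precursors in zymogen granules and release them into the pancreatic ducts. Their identity is kept by the transcription factor complex PTF1, formed by Ptf1a with Rbpjl, together with Nr5a2 and Bhlha15. In normal pancreas the enzyme genes are among the most abundant transcripts, whereas ductal carcinoma cells express them little or not at all.

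The measurements came from RNA sequencing of 10 orthotopic tumors grown from K8484, a murine pancreatic cancer line of the KPC model, a genetically engineered mouse model of pancreatic ductal adenocarcinoma. Per the methods the cells expressed luciferase and were placed into the pancreas of immunocompetent C57BL/6 J mice (C57BL/6 in the labels) of both sexes at 10 weeks of age, so that each tumor grew beside the pancreas of its host. CTRL denotes 5 tumors of mice that drank regular water, and D30 denotes 5 tumors of mice that drank 30% dextrose water for 14 days, the study's model of hyperglycemia. All tumors stem from 1 cell line, and tumors are named by the columns of the table, N1, N2, N4, N5 and N6 for CTRL and T1, T2, T4, T5 and T7 for D30, because the column numbers are not the replicate numbers of the labels. The N columns match the word normoglycemic in the sample titles, and the T columns were taken as D30 because no other group remained. The titles call the tumors PDX, while the source given for them is K8484 cells. Sequencing depth ran from 29915331 to 42122304 recovered reads in the CTRL group and from 29192261 to 37126175 in the D30 group. Values are normalized counts, that is, the reads of a gene divided by 1 size factor per tumor. Ductal keratins were high in every tumor, with Krt19 at 45447 to 114649 normalized counts. Other duct markers were low, with Sox9 at 18.6 to 354 and Epcam at 191 or less. T4 stood apart from the other D30 tumors in the acinar genes, and it was also the only tumor with reads of the 4 Y-linked genes looked at (841 reads, against 0 in the other 9), whose part in the results was not tested. Calls that change when T4 is left out are given for each list below.

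The digestive enzyme genes were abundant in 4 of the 10 tumors and nearly silent in the other 6. The summed normalized count of the 22 protease, lipase and amylase genes was 88580 in N6, 40588 in N2, 8912 in T4 and 4426 in N4. In the other tumors it was 451 in N1, 501 in N5, 860 in T1, 778 in T2, 448 in T5 and 1025 in T7. The tumors high in these genes were thus 3 of the 5 CTRL tumors and 1 of the 5 D30 tumors, and the groups overlapped. The sum in N6 was 2.18 times that in N2, N2 had 4.55 times the sum of T4, and T4 had 2.01 times the sum of N4. N4 in turn lay 4.32 times above the highest of the remaining 6 tumors, and T4 lay 8.69 times above the next D30 tumor. N6 and N2 together held 88.1% of the sum over all tumors, and the D30 mean was 0.0894 of the CTRL mean. As a share of all reads, the 22 genes took 0.290% in N6, 0.133% in N2, 0.0208% in T4, 0.0138% in N4 and 0.00117% to 0.00299% in the others.

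What the low tumors contained was mostly not the classical enzymes. Cela1, Pla2g1b and Amy1, described below, made up 62.2% to 92.7% of the enzyme sum in the 6 low tumors, against 1.35% to 7.77% in the 4 high ones. Without these genes the sum was 60.7 in T5, 62.7 in T1, 96.2 in T2, 127 in N1, 149 in T7 and 189 in N5, and it stayed at 4135 in N4, 8219 in T4, 40040 in N2 and 86457 in N6. In bulk tumor RNA, fewer acinar cells in a sample and less acinar RNA per cell cannot be told apart.

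**Figure D1:**
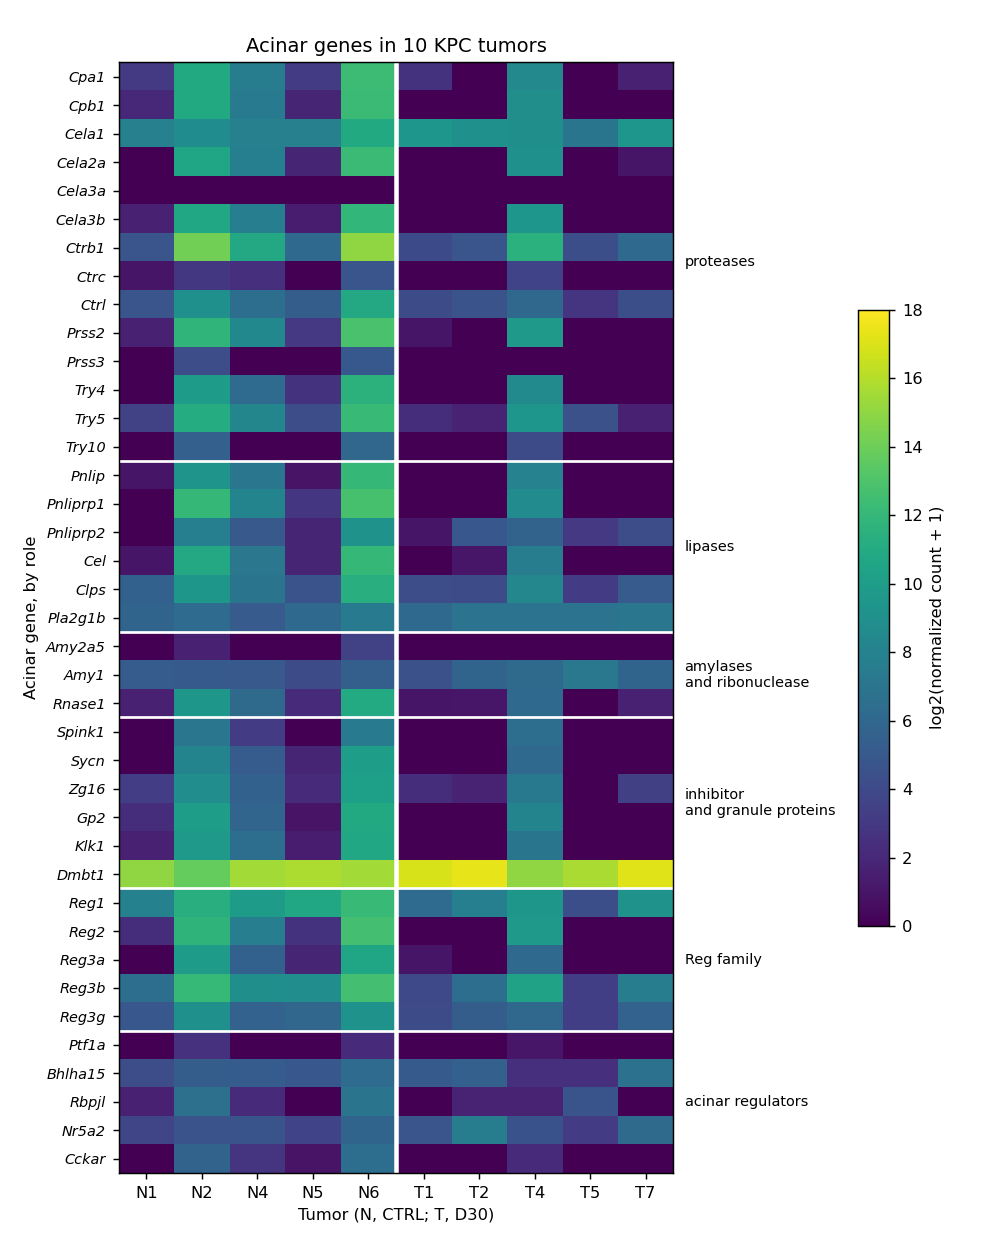
Heat map of log2(normalized count + 1) for the 39 acinar genes (rows, grouped by role) in the 5 CTRL tumors (N) and the 5 D30 tumors (T). Most rows are brighter in N2, N4, N6 and T4 than elsewhere, while rows such as Cela1, Pla2g1b, Amy1 and Dmbt1 do not divide the tumors in this way.

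**Figure D2:**
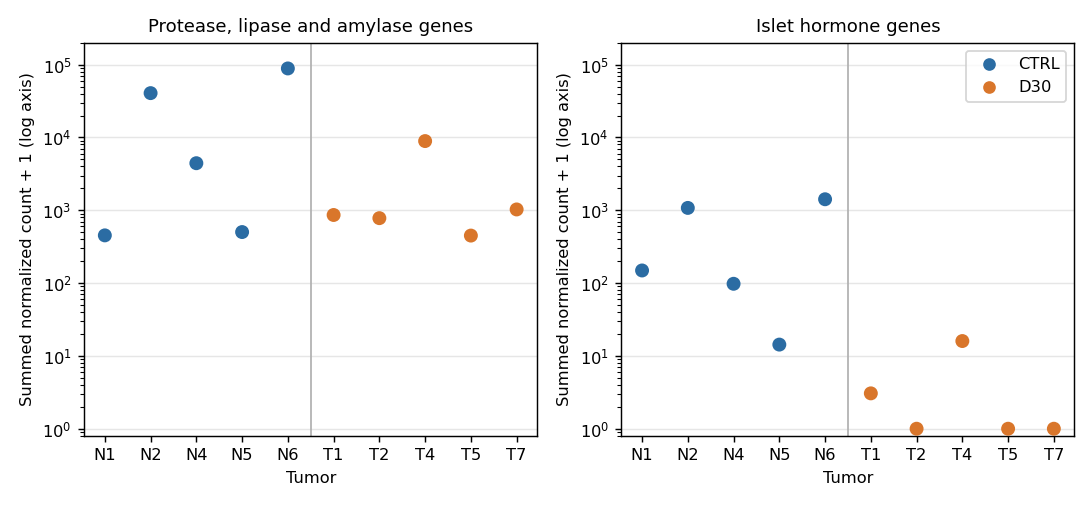
Summed normalized counts (log axis, 1 added) of the 22 protease, lipase and amylase genes (left) and of 6 islet hormone genes (right), with 1 point per tumor, CTRL in blue and D30 in orange. The enzyme sum runs from 448 in T5 to 88580 in N6, and T4 is the only D30 tumor above 1025.

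Gene by gene, 25 of the 39 genes had exactly N2, N4, N6 and T4 as their 4 highest tumors, an arrangement found in 0.383% of the 24560 tested genes. Of these, 21 followed the same order of N6, N2, T4, N4 and then the rest. In all, 33 of the 39 genes were highest in N6. For 11 of the 25 genes no tumor outside the 4 had more than 3 reads, and for 19 none had more than 10 reads. The exception with the most reads outside the 4 was Reg3b, with 521 reads in N5. These 4 tumors were picked out by their values, so no test was made between them and the others.

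Among the proteases, chymotrypsinogen B1 (Ctrb1) was the highest gene. It had 32456 normalized counts in N6, 18014 in N2, 1823 in N4, 26.3 in N1 and 69.9 in N5 among the CTRL tumors, and 2878 in T4, 15.4 in T1, 25.2 in T2, 19.5 in T5 and 71.4 in T7 among the D30 tumors. T4 therefore lay above N4 and far above all other D30 tumors, and N1 and N5 were as low as the D30 tumors without T4. Anionic trypsinogen (Prss2), the major trypsin precursor, had 7426 in N6, 3486 in N2, 344 in N4, 2.10 in N1 and 7.08 in N5, against 834 in T4, 1.03 in T1 and no read in T2, T5 and T7. Scaled by exon length, Ctrb1 was also first in N6, with 36966 normalized counts per kilobase, ahead of Prss2 with 9112.

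The other proteases that shared this pattern were the carboxypeptidases Cpa1 and Cpb1, which trim peptides from their ends, the elastases Cela2a and Cela3b, the chymotrypsin-like Ctrl and Ctrc, and the trypsinogens Try4 and Try5. In N6 they ranged from 25.7 normalized counts for Ctrc to 5202 for Cpa1. Cela2a, for example, had 5047 in N6, 1647 in N2, 532 in T4, 217 in N4 and at most 2.66 in any other tumor. Try10 and Prss3 were weakly read. Try10 had 61.6 in N6, 45.5 in N2, 16.2 in T4 and no read elsewhere, and Prss3 had 29.9 in N6, 18.1 in N2 and no read elsewhere, N4 and T4 included. Cela3a, the paralog of Cela3b, had no read in any tumor. Windows of 150 bases that also occur in another annotated transcript made up 31.2% of Prss3, 19.2% of Try4, 16.6% of Try5, 10.3% of Ctrc and 10.2% of Cela2a, so that counts of these genes are less certain.

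Cela1, an elastase known to be expressed in several epithelia, behaved differently. It had 232, 439, 224, 223 and 1914 normalized counts in N1, N2, N4, N5 and N6, and 705, 513, 507, 125 and 686 in T1, T2, T4, T5 and T7. N6 was the highest tumor here too, but every tumor had at least 125, and T4 was no higher than T2.

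The lipases split in the same way. Pnliprp1, a pancreatic lipase-related protein, had 6920 in N6, 4055 in N2, 271 in N4, no read in N1 and 6.20 in N5, against 416 in T4 and no read in the other D30 tumors. Cel, the bile salt-activated lipase, had 4088 in N6, 1878 in N2, 142 in N4, 1.05 in N1 and 2.66 in N5, against 199 in T4, 1.15 in T2 and no read in T1, T5 and T7. In both genes the lowest of the 4 high tumors was N4 (271 and 142), and no other tumor exceeded 6.20.

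Pancreatic lipase (Pnlip) reached 4010 in N6 but 623 in N2, so that N2 had 15.5% of the level in N6. Its cofactor colipase (Clps) was read in all tumors, with 8.01 to 47.3 in the 6 low ones and 2483 in N6. Pnliprp2 was low throughout, with 596 in N6, 214 in N2, 52.0 in T4 and 31.1 in N4, and T2 followed closely with 28.6. Pla2g1b, the secreted pancreatic phospholipase A2, was read evenly, with 35.6 to 167 in CTRL and 70.9 to 135 in D30.

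Ribonuclease 1 (Rnase1), the pancreatic ribonuclease, had 2064 in N6, 751 in N2, 74.0 in N4, 2.10 in N1 and 3.54 in N5, against 70.6 in T4, 1.03 in T1, 1.15 in T2, 2.13 in T7 and no read in T5. With Ctrl and Cckar it was 1 of 3 genes of the pattern in which T4 lay below N4. The amylases did not follow this pattern. Pancreatic amylase Amy2a5 had 10.3 in N6, 2.17 in N2 and no read in any other tumor, and 41.8% of its windows also occur in other amylase genes, so that reads may have been lost to them. Amy1, the amylase of salivary gland and liver, had 36.8, 33.3, 31.1, 16.8 and 41.9 in N1, N2, N4, N5 and N6, and 20.6, 53.8, 72.9, 147 and 54.3 in T1, T2, T4, T5 and T7. T5, the lowest tumor for the enzyme sum, was the highest for Amy1, which shares 29.7% of its windows with Rnpc3, a gene on the same strand.

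Among inhibitor and granule proteins, Gp2, the major membrane glycoprotein of zymogen granules, had 1977 in N6, 1040 in N2, 58.5 in N4, 4.21 in N1 and 0.885 in N5, against 274 in T4 and no read in any other D30 tumor. Sycn and Zg16, which line the inner face of the granule membrane, and Klk1, tissue kallikrein, were also highest in N6, N2, T4 and N4, with 1016, 1162 and 1713 in N6. Spink1, the trypsin inhibitor that guards against premature activation, had 172 in N6, 131 in N2, 89.1 in T4, 8.22 in N4 and no read in the other 6 tumors.

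Dmbt1, a scavenger receptor cysteine-rich protein secreted by many mucosal epithelia, was the exception within this role. It had 32574, 13722, 45727, 55172 and 45941 in N1, N2, N4, N5 and N6, and 121743, 168854, 33729, 54487 and 141951 in T1, T2, T4, T5 and T7. The highest values were thus in D30 tumors, with T4 and T5 within the CTRL range. Dmbt1 alone took 0.505% of all reads in T2 and made up 97.4% of the summed acinar genes in N1 and 99.2% in T1 and T2, but 28.3% in N6 and 19.7% in N2. For this reason the sum over all 39 genes had its highest value in T2, with 170224, followed by N6 with 162219. Without Dmbt1 the sum was 116277 in N6, 55857 in N2, 12793 in T4, 6541 in N4 and 522 to 2766 in the others.

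The Reg genes encode secreted lectin-like proteins that acinar cells raise in pancreatitis and that intestinal epithelium also makes. Reg3b had 6190 in N6, 4185 in N2, 495 in N4, 88.4 in N1 and 461 in N5, against 1329 in T4, 14.4 in T1, 88.2 in T2, 9.16 in T5 and 199 in T7. Reg1 was read in every tumor, with 4619 in N6, 2551 in N2, 935 in N4, 239 in N1 and 1680 in N5, against 754 in T4, 78.1 in T1, 219 in T2, 19.5 in T5 and 595 in T7. N5, which was low in the enzymes, was thus exceeded only by N6 and N2 in Reg1 and close to N4 in Reg3b. Reg2 and Reg3a had at most 5.31 in the 6 low tumors, with 6296 and 1539 in N6, and resembled the enzymes, while Reg3g had 9.16 to 61.1 in the low tumors and 606 in N6.

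Of the regulators, Ptf1a, the factor that defines acinar cells, was almost unread, with 5.06 in N2, 3.42 in N6, 1.16 in T4 and no read elsewhere. Its partner Rbpjl had 121 in N6, 99.0 in N2, 3.65 in N4, 2.10 in N1 and no read in N5, against 24.0 in T5, 2.31 in T4, 2.29 in T2 and no read in T1 and T7. Cckar, the cholecystokinin receptor that triggers enzyme release in rodents, had 89.0 in N6, 51.3 in N2, 5.48 in N4, 3.47 in T4 and at most 0.885 elsewhere. The 4 high tumors were also the highest for Cckar, but T4 had only a few reads.

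Bhlha15 (Mist1), which builds the secretory apparatus, had 17.9, 38.3, 37.5, 29.2 and 77.9 in N1, N2, N4, N5 and N6, and 32.9, 44.7, 4.63, 4.58 and 109 in T1, T2, T4, T5 and T7. T4 was among the lowest tumors for Bhlha15 and T7 the highest. Nr5a2, a nuclear receptor active in acinar and other gut epithelial cells, had 12.6, 23.9, 24.7, 11.5 and 53.9 in the CTRL tumors in the same order, and 25.7, 197, 22.0, 8.01 and 73.5 in the D30 tumors. T2 was by far the highest in Nr5a2 while its enzyme sum was among the 6 low ones.

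**Figure D3:**
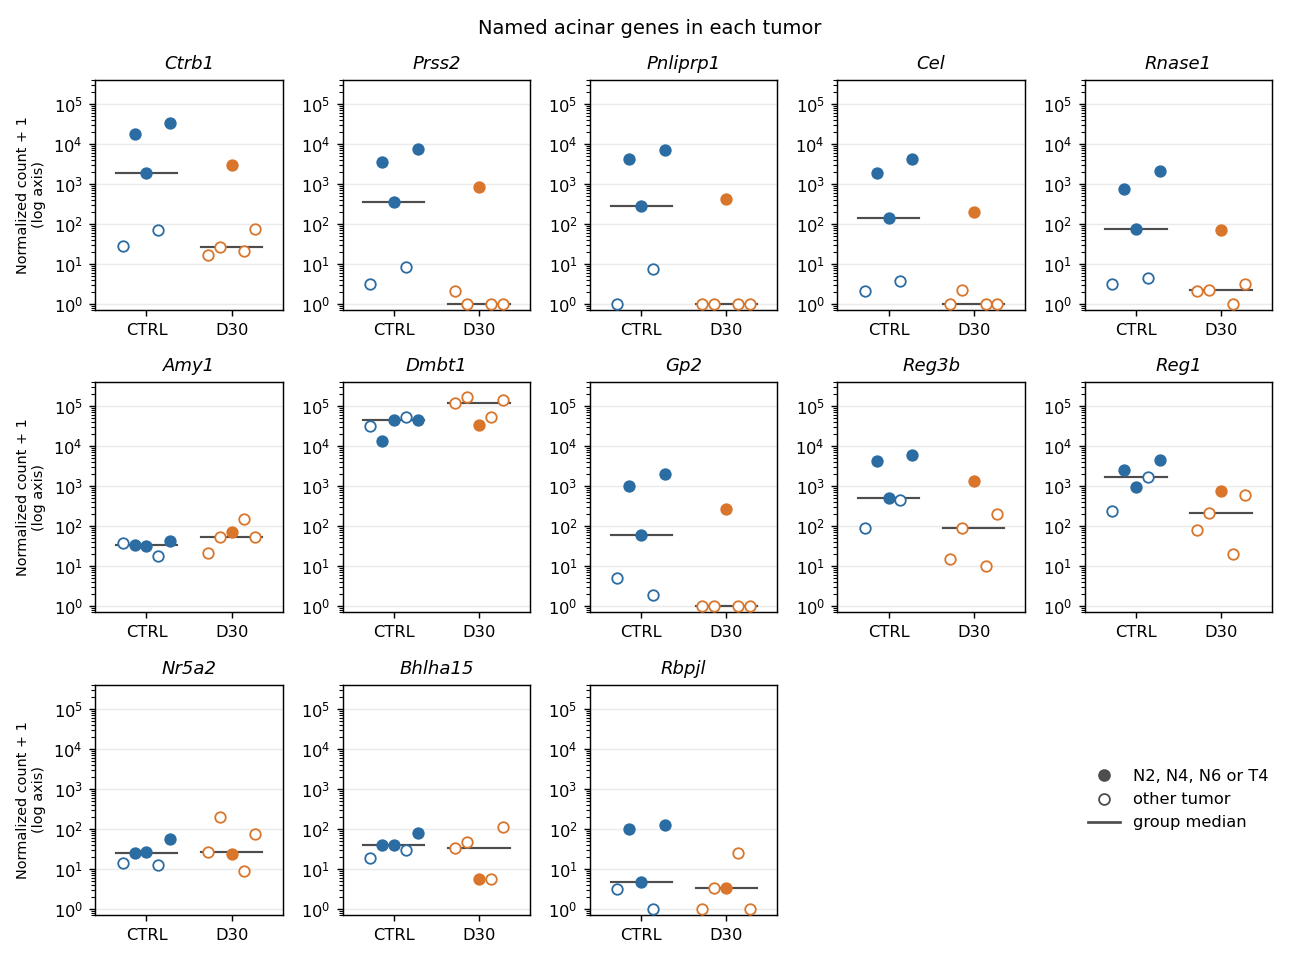
Normalized count (log axis, 1 added) of 13 named acinar genes in each tumor, CTRL in blue and D30 in orange. Filled points are N2, N4, N6 and T4, open points the other 6 tumors, and the bar is the group median. In the enzyme genes other than Amy1, and in Gp2 and Reg3b, the filled points lie above all open points. In Amy1, Dmbt1, Reg1, Rbpjl, Nr5a2 and Bhlha15 filled and open points mix.

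The genes of the pattern, picked by having N2, N4, N6 and T4 highest, kept similar proportions in N4 and spread more widely in N2 and T4. For the 23 of them with at least 100 normalized counts in N6, the value in N2 was a median of 43.2% of that in N6, from 15.5% for Pnlip to 76.1% for Spink1. In N4 the median was 4.01%, from 2.64% for Try4 to 8.0% for Reg3b. In T4 it was 9.80%, with quartiles of 6.6% and 13.4% and extremes of 3.42% for Rnase1 and 51.8% for Spink1. N4 was thus the most uniform, and T4 the most uneven. After Spink1, the highest levels in T4 relative to N6 were those of Reg3b (21.5%), Cela3b (18.1%), Try5 (15.7%), Gp2 (13.9%) and Zg16 (13.5%). Cel lay at 4.87% and Ctrl at 3.73%. This is a ranking within the 23 genes, and no test was made of it. Over the 10 tumors, 21 acinar genes had a Pearson r of at least 0.95 with the mean log2 level of the enzymes, led by Sycn (0.996), Pnlip and Cel (0.994 each). Cela1 had 0.482, Pla2g1b 0.139, Bhlha15 0.130, Nr5a2 0.059, Amy1 -0.052 and Dmbt1 -0.652. These coefficients rest on the contrast of 4 tumors with 6, share the same libraries, and for the enzymes share the measure itself, and no p was computed.

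**Figure D4:**
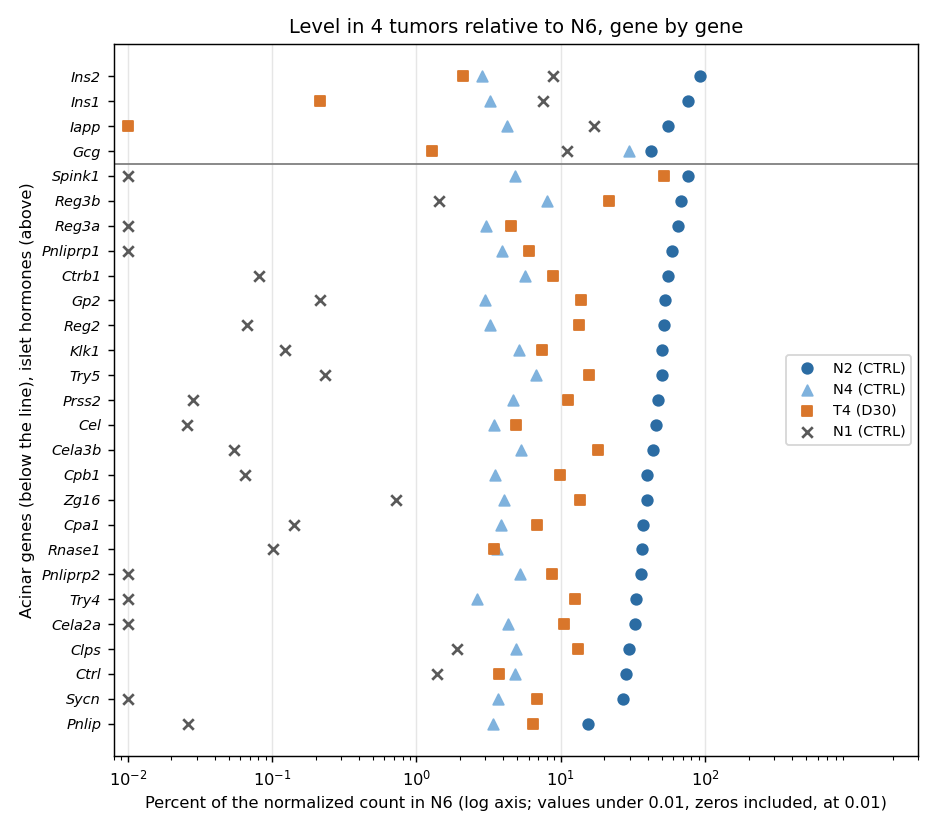
Level of 23 acinar genes (below the line) and 4 islet hormone genes (above it) in N2, N4, T4 and N1 as a percentage of the level in N6 (log axis; values under 0.01, zeros included, are drawn at 0.01). The ranges of the tumors overlap across the acinar genes (N4 2.64% to 8.0%, T4 3.42% to 51.8%, N2 15.5% to 76.1%). T4 (median 9.80%) lies above N4 (median 4.01%) for most of them, while the islet hormones lie lower in T4 and higher in N1.

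The comparison of D30 with CTRL asked whether glucose-rich drinking water was accompanied by a different level of these genes. Genes that averaged at least 1 normalized count were tested by limma's moderated test on log2(normalized count + 1), with p values adjusted over all tested genes by the Benjamini-Hochberg method and a call at an adjusted p under 0.05. Of the 39 genes, 37 were tested, since Cela3a had no read and Ptf1a had too few, and Prss3 and Amy2a5 passed the filter only through N2 and N6. None of the 37 was called, against 2.76% of all tested genes. An unadjusted p under 0.05 was reached by 15 of them, 1 higher and 14 lower in D30, against 17.3% of all tested genes. The groups overlapped in each of the 37, whereas they did not overlap in 6.19% of all tested genes. edgeR's quasi-likelihood test on recovered reads called 0 of the 14 members that it kept, 6 of which had an unadjusted p under 0.05, against 4.13% of all genes that it tested.

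In direction, 32 of the 37 were lower in D30 and 5 higher, where 54.7% of all tested genes were lower. The median log2 difference was -3.05, beside -0.06 over all tested genes, and it ranged from -5.46 for Reg2 to 1.34 for Dmbt1. For Prss2 and Ctrb1 the SD within each group exceeded its mean. Prss2 had 2253 ± 3242 normalized counts in CTRL and 167 ± 373 in D30 (SD, n = 5 each), a log2 difference of -5.40 with a standard error of 2.33 (limma adjusted p = 0.256). Ctrb1 had 10478 ± 14425 and 602 ± 1272 (SD, n = 5 each), a log2 difference of -4.02 with a standard error of 1.95 (limma adjusted p = 0.310). Its 95% interval ran from -8.23 to 0.19, so that both a large fall and no change lie within it. Pnliprp1 differed by -5.39, Cel by -4.84, Gp2 by -4.41 and Rnase1 by -4.14, all with limma adjusted p values between 0.241 and 0.289.

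By role, 12 of 13 tested proteases were lower in D30, 5 of them at an unadjusted p under 0.05, with a median log2 difference of -4.02. Of the 6 lipases 5 were lower (median -3.51), and of the inhibitor and granule proteins also 5 of 6 (median -3.43). All 5 Reg genes were lower (median -3.43), 4 of them at an unadjusted p under 0.05. The lowest adjusted p of all 37 was that of Reg1, whose log2 difference was -2.95 with a standard error of 0.960 (limma adjusted p = 0.130). Reg3b differed by -3.43 (limma adjusted p = 0.211).

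Among the genes outside the pattern, Dmbt1 had 38627 ± 16082 in CTRL and 104153 ± 57772 in D30 (SD, n = 5 each), a log2 difference of 1.34 with a standard error of 0.478 (limma adjusted p = 0.168). Amy1 differed by 0.90 (limma adjusted p = 0.366), Nr5a2 by 0.75 (adjusted p = 0.650), Pla2g1b by 0.60 (adjusted p = 0.467) and Cela1 by 0.14 (adjusted p = 0.938). The 95% interval of Cela1 was -1.19 to 1.46, and its difference was -0.25 with edgeR and -0.26 with DESeq2. Of the regulators, Bhlha15 differed by -0.73 (limma adjusted p = 0.682) and Rbpjl by -1.87 (adjusted p = 0.512), a sign that turned to 0.33 when N2 and N6 were left out.

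The calls depended on T4 and on the test used. Without T4, 8 members were called, against 6.43% of all tested genes, a share that was 2.76% with all 10 tumors. Prss2, Reg2, Cpb1, Cpa1, Klk1, Reg3b and Reg1 were lower in D30, where 3.11% of all tested genes were called lower, and Dmbt1 was higher. Prss2 then differed by -7.29 with a standard error of 1.92 (limma adjusted p = 0.0396), Reg2 by -7.40 (adjusted p = 0.0302) and Dmbt1 by 1.69 (adjusted p = 0.0260). In the D30 tumors other than T4, Reg2, Cpb1 and Klk1 had no read and Prss2 had 1 read, in T1. These genes passed the filter through CTRL, and the size of their differences depends on the count added before the log. With 0.5 added instead of 1, Prss2 differed by -6.01 rather than -5.40 over all 10 tumors. DESeq2 on recovered reads of all 10 tumors called 3 members, Ctrl (log2 difference -4.23, adjusted p = 0.00439) and Reg3g (-2.82, adjusted p = 0.0329) lower and Dmbt1 (1.43, adjusted p = 0.0253) higher, against 8.17% of all genes that it tested. Without N2 and N6, the CTRL tumors with the highest enzyme sums, limma called no member (1 had an unadjusted p under 0.05), against 0.269% of all tested genes, and the median log2 difference was -1.11. These 2 tumors were picked by their values after the data were seen, and fewer CTRL tumors remained. A smaller difference was thus built in, and no conclusion is drawn from this fit.

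**Figure D5:**
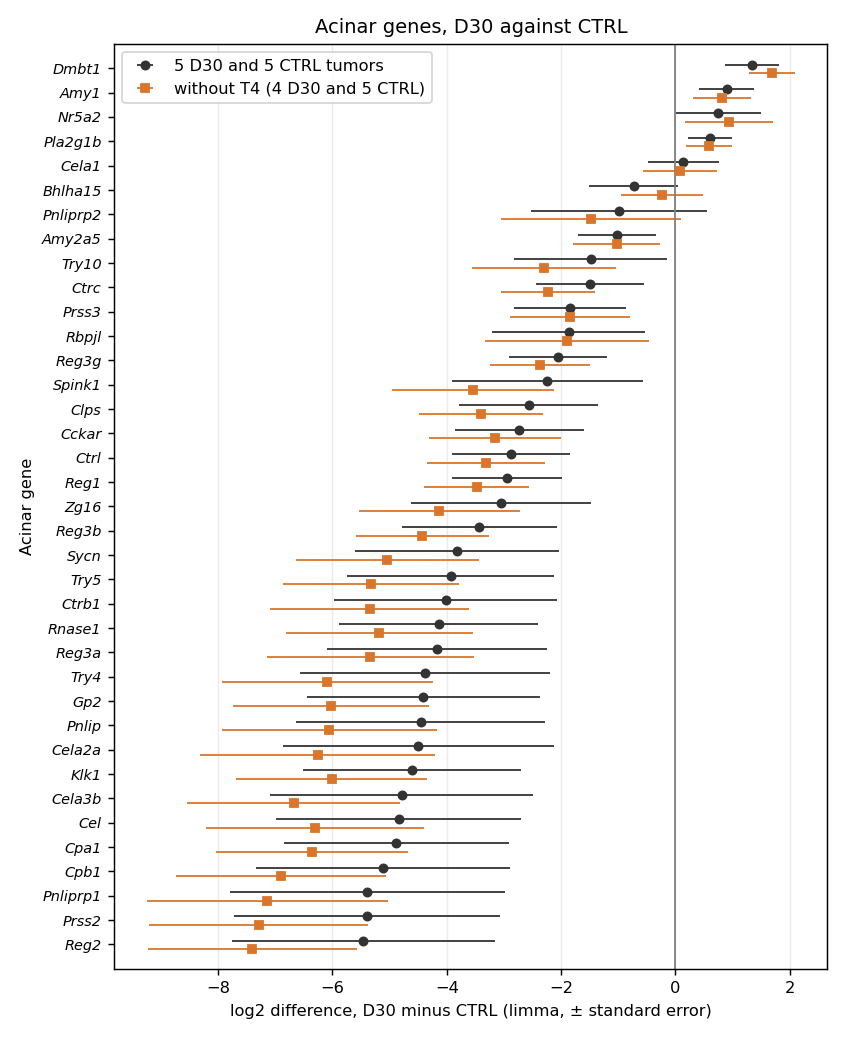
log2 difference of D30 minus CTRL (limma, bars are ± 1 standard error) for the 37 tested acinar genes with all 10 tumors (black circles) and without T4 (orange squares). Most genes lie far below 0 with wide bars, from -5.46 for Reg2, and move further down without T4, while Dmbt1, Amy1, Nr5a2, Pla2g1b and Cela1 lie above 0.

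Several of the genes are neighbors. In GENCODE M21 (GRCm38) the 5 Reg genes lie on chromosome 6 between 78370657, where Reg3b begins, and 78468872, the end of Reg3g. The trypsinogens Try4, Try5, Try10, Prss3 and Prss2 lie on the same chromosome between 41302269 and 41525079, and Pnlip, Pnliprp1 and Pnliprp2 follow each other on chromosome 19 between 58652498 and 58777534. Neighbors were not alike in every tumor. N5 had 1680 normalized counts of Reg1 but 5.31 of Reg2, and N4 had 304 of Try5 but no read of Try10. Ctrb1 lies on chromosome 8 (111686519 to 111691010), Cel on chromosome 2 (28555795 to 28563403) and Dmbt1 on chromosome 7 (131032053 to 131121630).

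Since most of these genes moved together, the bases upstream of their starts were examined for the letters bound by PTF1. The complex recognises a bipartite site made of an E-box, searched here as CACCTG, and a box for its Rbpj-type subunit, searched as TTCCCA, both on either strand, with a base that belongs to both motifs counted for each. RefSeq regions (GRCm38.p6) were found for 31 of the 39 genes, not for Ctrc, Try5, Try10, Clps, Spink1, Zg16, Dmbt1 and Cckar. In the 250 bases before the start, CACCTG was present in 18 of the 31 genes, against 17.2% of the 32851 regions of all genes. TTCCCA was present in 20 of them, against 21.6%, and both in 9, against 3.91%. The units differ, since a member was counted if any of its regions matched (31 genes, 33 regions), while the percentages are per region (32851 regions of 27025 genes). Of the 19 genes of the pattern with a region, 12 held CACCTG, 14 held TTCCCA and 7 held both, and of the 12 other genes 6, 6 and 2 did. Shown are 4 genes of the pattern (Ctrb1, Prss2, Cel and Pnliprp1) and 3 genes outside it (Cela1, Pla2g1b and Bhlha15). The sequences run 5′ to 3′ toward the start of the gene on its own strand, with matches to either motif or its reverse complement (CAGGTG and TGGGAA) in capitals. In GRCm38.p6 the regions are Ctrb1 chr8:111691011-111691260 (minus strand), Prss2 chr6:41521526-41521775 (plus strand), Cel chr2:28563404-28563653 (minus strand), Pnliprp1 chr19:58728637-58728886 (plus strand), Cela1 chr15:100687921-100688170 (minus strand), Pla2g1b chr5:115465892-115466141 (plus strand) and Bhlha15 chr5:144190036-144190285 (plus strand).
Ctrb1: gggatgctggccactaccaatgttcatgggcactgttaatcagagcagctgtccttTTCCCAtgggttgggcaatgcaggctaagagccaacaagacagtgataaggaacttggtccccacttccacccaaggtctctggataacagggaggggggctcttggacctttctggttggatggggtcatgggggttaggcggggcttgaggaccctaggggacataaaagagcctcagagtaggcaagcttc
Prss2: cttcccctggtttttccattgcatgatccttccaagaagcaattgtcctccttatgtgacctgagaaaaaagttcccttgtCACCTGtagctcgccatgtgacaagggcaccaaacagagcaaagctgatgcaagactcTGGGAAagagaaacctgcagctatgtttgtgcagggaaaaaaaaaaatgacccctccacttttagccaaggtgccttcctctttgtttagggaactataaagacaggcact
Cel: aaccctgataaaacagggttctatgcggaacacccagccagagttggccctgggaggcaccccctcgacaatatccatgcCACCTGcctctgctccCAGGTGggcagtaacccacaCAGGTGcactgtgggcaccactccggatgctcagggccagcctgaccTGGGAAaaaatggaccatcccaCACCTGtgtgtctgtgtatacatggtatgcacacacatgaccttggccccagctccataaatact
Pnliprp1: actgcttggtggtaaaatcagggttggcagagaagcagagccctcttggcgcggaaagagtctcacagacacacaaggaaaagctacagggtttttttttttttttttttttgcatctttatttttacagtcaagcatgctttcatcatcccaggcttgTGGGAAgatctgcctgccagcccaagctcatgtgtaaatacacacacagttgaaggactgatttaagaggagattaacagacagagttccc
Cela1: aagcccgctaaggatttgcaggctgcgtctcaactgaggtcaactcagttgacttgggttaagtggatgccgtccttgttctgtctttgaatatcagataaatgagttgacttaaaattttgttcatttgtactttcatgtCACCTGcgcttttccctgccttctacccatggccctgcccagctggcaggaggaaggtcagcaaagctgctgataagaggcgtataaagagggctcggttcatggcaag
Pla2g1b: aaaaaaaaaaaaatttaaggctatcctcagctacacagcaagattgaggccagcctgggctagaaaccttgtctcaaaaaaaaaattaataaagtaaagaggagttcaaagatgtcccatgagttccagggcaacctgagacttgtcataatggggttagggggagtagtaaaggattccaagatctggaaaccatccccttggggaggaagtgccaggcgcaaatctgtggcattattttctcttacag
Bhlha15: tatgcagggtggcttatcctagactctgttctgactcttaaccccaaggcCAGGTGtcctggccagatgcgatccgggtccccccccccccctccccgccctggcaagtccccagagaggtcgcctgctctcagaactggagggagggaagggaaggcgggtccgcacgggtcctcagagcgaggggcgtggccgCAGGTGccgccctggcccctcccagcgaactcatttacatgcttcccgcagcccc
Prss2 and Cel held both motifs, Ctrb1 and Pnliprp1 only TTCCCA, Cela1 and Bhlha15 only CACCTG, and Pla2g1b neither. The region of Pla2g1b ends before its start in GENCODE M21 (115466262), and the bases between were not searched. A match is a description of the letters and not of binding, and the letters did not divide the genes of the pattern from the others, since Cela1 and Bhlha15 hold the E-box as well.

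The enzyme pattern was shared by further acinar genes that are not among the 39. Of a list of 29 such genes 28 were in the table and 19 were tested. None was called by limma, against 2.76% of all tested genes, and 4 had an unadjusted p under 0.05, against 17.3%. In D30, 13 were lower and 6 higher (median log2 difference -0.61). N2, N4, N6 and T4 were the highest tumors for 5 of the genes, against 0.383% of all tested genes. The trypsinogen-like 2210010C04Rik had 5305 normalized counts in N6, 2092 in N2, 767 in T4, 250 in N4 and at most 10.5 elsewhere. Reg3d, Cuzd1 and Serpini2 were also among them. Without T4, 2210010C04Rik was called lower and Gata4 higher, against 6.43% of all tested genes called. The most abundant of the list did not follow the pattern. Rab3d, a GTPase of secretory granules, had 2871 to 5877, Gata4, a transcription factor of foregut epithelium, had 680 in T4 and 1825 to 6317 in the others, and Gjb1, a gap junction protein, had 632 to 2754.

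Across the 17361 genes with a mean of at least 10, 26 had an r of at least 0.95 with the mean log2 level of the enzymes. They were 21 of the 39, 4 of the further acinar genes and 1 gene of no list, Gm2663, and limma called none of them. Gm2663 (r = 0.974) had 65.0 in N6, 39 in N2, 18.3 in N4, 6.94 in T4 and no read elsewhere. Next came 1810028F09Rik (r = 0.938), with 85.6 in N6, 52.8 in N2, 2.31 in T4, 1.83 in N4 and no read elsewhere. The following genes were Klf15 (0.837), Abca6 (0.828), Syngr3 (0.817), Dclk2 (0.810), 2900005J15Rik (0.809) and Cabp2 (0.803), all of which had reads in most tumors. Between Gm2663 and Klf15 the likeness thus dropped sharply, and few genes outside the acinar lists followed the enzymes closely.

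Islet genes mark the other compartment of the pancreas, and they did not follow the same order of tumors. Ins1 had 542 normalized counts in N6, 410 in N2, 41.0 in N1, 17.4 in N4 and 0.885 in N5, against 1.16 in T4 and no read in the other D30 tumors. Gcg had 181, 76.6, 20, 53.9 and 1.77 in the same CTRL tumors, against 2.31 in T4 and no read in the others. The summed islet hormone genes had 148 in N1 and 15 in T4, where the enzyme sum was 451 and 8912. Relative to N6, T4 had 0.214% of Ins1 and 2.11% of Ins2 but a median of 9.80% of the acinar genes, whereas N1 had 7.58% of Ins1 and 8.81% of Ins2 but a median of 0.0646% of the acinar genes. All 14 tested islet genes were lower in D30, where 54.7% of all tested genes were lower. Of the 14, 5 were called, against 2.76% of all tested genes. They were Ins1, Gcg, Iapp, Ppy and Slc2a2, with limma adjusted p values of 0.0355, 0.0170, 0.0216, 0.0107 and 0.0162. Without T4 these 5 and Ins2 were called, against 6.43% of all tested genes. In D30, Iapp had no read, Ppy had 2.06 in T1 only, and Ins1, Ins2 and Gcg were read in T4 only. Iapp, Ppy, Ins1, Ins2 and Gcg thus passed the filter through CTRL. For them only a lower D30 value could be called, and its size depends on the count added before the log. Pdx1, a pancreatic transcription factor and the most abundant of the islet list, had 370 in T5 and 1794 in T1 as its extremes and 697 in T4.

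The remaining lists give the epithelial setting. Of 10 ductal genes 7 were higher and 3 lower in D30. limma called none, against 2.76% of all tested genes, although 7 had an unadjusted p under 0.05, against 17.3%. Without T4, 5 of them were called, against 6.43% of all tested genes. Krt7, Krt18 and Muc1 were then called higher and Spp1 and Epcam lower. Krt8 had 60374 to 124082 normalized counts in CTRL and 79597 to 179473 in D30 tumors, Krt18 had 44920 to 75293 and 78477 to 148886, and Krt19 had 45447 to 86791 and 83452 to 114649. Not all ductal genes were abundant. Sox9 had 18.6 to 354 across all tumors, and Epcam had 15.9 to 191 in CTRL and at most 62.5 in D30. Among 17 tested intestinal genes 1 was called, against 2.76% of all tested genes. It was Fcgbp, a mucus protein, with 379 to 1101 in CTRL and 1653 to 10712 in D30 (log2 difference 2.61, standard error 0.441, limma adjusted p = 0.00790). The groups did not overlap in Fcgbp, and its D30 tumors stood in the order T2, T7, T1, T5 and T4, the same as in Dmbt1, a likeness noticed after the values were seen. Vil1, a microvillus protein, had 3900 to 12108 across all tumors, and Alpi, intestinal alkaline phosphatase, had 241 to 865 in CTRL and 398 to 9738 in D30. Without T4, Alpi was called higher and Lgr5, a stem cell receptor, lower beside Fcgbp, against 6.43% of all tested genes called. The part of intestinal gene expression in the level of Dmbt1 and the Reg genes was not tested.

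Salivary gland, which shares amylase and Dmbt1 with pancreas, left no trace apart from Aqp5, a water channel that other epithelia also express, at 127 to 1234. Of its 6 markers in the table Bpifa2 had 1.77 in N5 and no read elsewhere, and Smr3a, Prol1, Dcpp1 and Lpo had no read. STAT3 signalling and the acute phase response accompany the rise of Reg genes in pancreatitis. Of 18 tested genes of these, limma called none, against 2.76% of all tested genes. None had an unadjusted p under 0.05, against 17.3% of all tested genes. Stat3 had 2820 to 10036, Socs3 1514 to 4475 and Bcl3 534 to 3453, with the lowest value of each in T4.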

How the data were processed

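Per the methods, directional libraries were read in pairs, trimmed and aligned with STAR 2.7.0e. The submitters' processing notes list GRCm39, CASAVA, FastQC, Trim Galore and DESeq2, the methods name hg38, and the identifiers are mouse Ensembl genes. The paper also lists RSEM among its software. The annotation and how reads were counted by strand are not given in the sources used here. What the authors deposited is a signal for each gene in each tumor, namely reads over the size factor of that tumor as DESeq2 gives them. All values (100.0%, tolerance 0.01 of a read) came out as whole reads when this division was undone, and the reads served the count tests. No column was left out (0 not used).

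Names and positions came from GENCODE M21 (GRCm38) for 94.1% of identifiers. The members and lists were chosen with earlier results of these data known. limma 3.58.1 (R 4.3.3) with a mean-variance trend was fitted to log2(normalized count + 1) of the 24560 genes averaging at least 1, in all 10 tumors without covariates. Folds on this scale understate the change of low genes. edgeR 4.0.16 and DESeq2 1.42.0 on the reads, another pseudocount, other filters and scalings, leaving out each tumor and the acinar level as a covariate were alternatives, and leaving out N2 and N6 together, or Dmbt1 from the sum, was added after the data were seen. The fits were tested on simulated data.

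Named with values in each tumor were called members, the 2 tested members with the highest mean in each role and the regulators Ptf1a, Bhlha15, Rbpjl and Nr5a2. Of each other list the called genes and the 3 with the highest mean were named, and of unlisted genes the 8 with the highest r with the mean log2 enzyme level. Further genes are examples chosen after their values were seen. The labels do not say more of the animals, so p values measure the spread between these tumors. Windows of 150 bases shared with other transcripts, found in 9 members, mark counts that are uncertain, and 12 members overlap another annotated gene, whose reads may be mixed if strand was not used in counting.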

Additional observations from a re-analysis of the deposited data

Results flagged for a closer look

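In groups of 5 tumors, a tumor was singled out where its gap to the next tumor exceeded 0.710 of the group's range. Of the 30 groups looked at, 10 held one. The chance share of about 1 in 20 holds only for independent, normally distributed values. These counts are skewed and the genes share the same tumors, so no excess over chance was measured. Most of them are the D30 tumor T4 and are 1 pattern, since the genes share it. The summed enzyme genes had 8912 normalized counts in T4 and 1025 in the next D30 tumor. T4 had 2878 for Ctrb1 (next D30 tumor 71.4), 834 for Prss2 (next 1.03), 416 for Pnliprp1 (no read in the others), 199 for Cel (next 1.15), 70.6 for Rnase1 (next 2.13), 274 for Gp2 (no read in the others) and 1329 for Reg3b (next 199). In CTRL, N6 had 162219 for the sum of all 39 genes, with 69579 in the next tumor. T5 had 24.0 for Rbpjl, with 2.31 in the next D30 tumor. The CTRL tumors were not singled out for the enzymes, because N2 and N4 lay between N6 and the low tumors.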

How the results depend on the processing

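The median log2 difference of the acinar genes was below 0 under every alternative, from -4.13 without T4 to -1.11 without N2 and N6, and -0.14 (22 lower, 15 higher) with the acinar level as a covariate, which is made of these genes. The number of acinar genes called was 0 in the reported fit, 3 with DESeq2 (1 higher, 2 lower) and 0 in the other alternatives apart from those that left out a tumor, which gave 0 to 8, the 8 without T4 alone. Signs turned for Rbpjl (0.33), Pnliprp2 (1.48), Spink1 (0.23) and Try10 (0.82) without N2 and N6, for Pnliprp2 (0.12) without N6, and for Cela1 (-0.26 to -0.02) in 9 settings. Of these, library size and upper quartile scaling moved the median of all tested genes from -0.06 to -0.27 and -0.21, so that Cela1 stayed above that median. Under the covariate 10 genes turned, Ctrb1 from -4.02 to 0.12. Over all genes 678 were called (344 higher, 334 lower), 864 with library size scaling (240 higher, 624 lower), 1833 with DESeq2, 279 to 1573 with a tumor left out (279 without N2, 340 without N5, 332 without N6, 433 without T7 and 1573 without T4), and 66 without N2 and N6. With the acinar level as a covariate, 186 genes that are no members were called, 185 of them among the 678. The sum over all 39 genes, as the log2 ratio of the D30 to the CTRL median, was 1.08, between 0.62 and 1.2 with a tumor left out, but -2.20 without the Reg family, Zg16, Dmbt1 and Rnase1 and -2.26 without Dmbt1 alone, because Dmbt1 held most of that sum in most tumors. Apart from these, the causes of the changes were not tested. No paired analysis was possible because the columns of the table do not carry the replicate numbers of the labels. Nor was one called for by the design as described. Per the methods, tumor-bearing mice were randomized to treatment, and no matching of CTRL with D30 mice is described. A replicate number shared by both groups is thus not known to mark a pair. At these depths 1 read equals about 1 normalized count, so genes with a few reads in the low tumors cannot be ranked among them, and 5 tumors a group limit every comparison.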
